A study of Mus musculus with 4 samples.

Results

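The IL-17 program was followed in the hindpaw of diabetic and lean mice through 7 genes, Il17a, Il17f, Il22, Il23r, Sox13, Blk and Il17re. They were chosen by symbol, as genes known for this program and with earlier results of these data known. All 7 were among the 32285 genes of the count tables. Their levels were read in every lymphoid type that could be gated by markers other than these genes, in barcodes that had 200 or more genes and no more than 10% mitochondrial counts. CD45+ leukocytes had been sorted from collagenase-digested, uninjured hindpaws of male mice and sequenced with the 10x 3′ droplet method, which tags every captured transcript with the barcode of its cell and with a molecular identifier (UMI) that counts it once. DB mice were homozygous for the Lepr db allele (Lepr db/db, C57BLKS/J stock), which inactivates the leptin receptor and leads to obesity and diabetes, and WT mice were their Lepr WT/WT littermates. Mice were 12 or 21 weeks old, and values are given in the order 12-week-WT then 12-week-DB, followed by 21-week-WT then 21-week-DB (library order). Each was 1 library from 2 to 3 pooled mice, so conditions have no replicates and were not tested against each other.

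Interleukin 17A and 17F are related cytokines that act on epithelial and stromal cells and call in neutrophils. In skin they come largely from dermal γδ T cells, which leave the thymus already committed to making them and respond to IL-23 and IL-1 without prior antigen contact. Dendritic epidermal T cells (DETC), the γδ T cells of the epidermis, belong to another lineage that is known for interferon-γ and growth factors rather than IL-17.

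All 7 genes are protein-coding. On GRCm38 (mm10, GENCODE vM21), Il17a lies at chr1:20730905-20734496 on the plus strand and Il17f at chr1:20777146-20790617 on the minus strand, 42649 bases apart. Il22 lies at chr10:118204942-118210047 (plus), Il23r at chr6:67422932-67491855 (minus) and Il17re at chr6:113458484-113470758 (plus). Sox13 lies at chr1:133382303-133424377 (minus) and Blk at chr14:63372836-63417037 (minus). AGGTCA is the core half-site that many nuclear receptors bind, and the 250 bases before the RefSeq start of each gene were searched for it on both strands (TGACCT on the printed strand). A promoter was found in the RefSeq table (GRCm38.p6) for 6 of the 7 genes, all but Blk, and 3 of the 6 held the 6 letters, against 14.02% of all 32851 promoters. The promoters of Il17a, Il17f and Il23r are shown because they hold the match, which is marked in capitals, and each is printed 5′ to 3′ on the strand of the gene. Il17a (chr1:20730655-20730904, plus strand) held 1 match on the opposite strand, its first printed base 120 bases before the start, Il17f (chr1:20784271-20784520, minus strand) held 1 at 58 bases, and Il23r (chr6:67491856-67492105, minus strand) held 2 that do not overlap, at 229 and 66 bases. The RefSeq starts used for Il17f and Il17re lie inside the GENCODE spans given above, and so do the 250 bases searched before each. The stretches searched for Il22 and Sox13 lie partly inside their spans. A match of 6 letters describes the sequence and is not a measured binding site.
Il17a: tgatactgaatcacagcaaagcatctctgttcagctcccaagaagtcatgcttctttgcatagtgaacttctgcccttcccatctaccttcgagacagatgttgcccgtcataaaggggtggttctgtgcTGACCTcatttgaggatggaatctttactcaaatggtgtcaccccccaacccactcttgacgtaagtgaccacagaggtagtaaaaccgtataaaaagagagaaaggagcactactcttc
Il17f: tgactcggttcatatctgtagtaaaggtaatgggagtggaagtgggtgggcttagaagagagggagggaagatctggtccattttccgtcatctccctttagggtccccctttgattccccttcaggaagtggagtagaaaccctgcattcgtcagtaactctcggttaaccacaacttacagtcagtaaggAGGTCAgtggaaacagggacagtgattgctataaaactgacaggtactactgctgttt
Il23r: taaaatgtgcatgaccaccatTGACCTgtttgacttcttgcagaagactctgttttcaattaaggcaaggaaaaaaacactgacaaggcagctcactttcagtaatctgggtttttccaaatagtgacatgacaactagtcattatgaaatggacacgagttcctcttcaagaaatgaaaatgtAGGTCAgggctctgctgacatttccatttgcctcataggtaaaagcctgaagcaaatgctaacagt

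The 4 libraries held 5998 to 9124 barcodes each, 30793 in all, of which 27800 were kept, with a median of 5355 to 8000.5 UMIs per kept barcode. Dermal γδ T barcodes were gated on CD3 chains and Trdc without Trac, and then on more UMIs of Cd163l1, Cxcr6, F2r and Tcrg-V6 than of the DETC genes Fermt2, Cd7, Gem and Tcrg-V5. The gate held 304, 410, 727 and 973 barcodes in library order, with median depths of 6456, 6194.5, 7409 and 5428 UMIs. Cd3e was detected in 85.4% to 92.8% of them and the γδ chain gene Trdv4, which the gate did not use, in 68.1% to 86.0%. Macrophage genes (Pf4, Apoe and C1q) summed to 204 to 401 CPM there (a gene's UMIs scaled to 1000000 UMIs of the gate), against 11952 to 22305 in the macrophage gate. B cell genes summed to 14.5 to 30.4 CPM. Keratinocyte genes were highest in 12-week-WT (70.2 CPM, against 10.5 to 14.4 in the other libraries). Genes induced by tissue handling, such as Fos, Jun and Hspa1a, summed to 9918 to 13226. Libraries shared barcode sequences, most often both 21-week libraries (154), and 3, 3, 4 and 12 of the dermal γδ T barcodes in library order were also found in another library. Leaving these out changed no count of members given here by more than 1.5 times.

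Dermal γδ T cells held the highest median level of each of the 7 genes among the 9 types gated. Over the 4 libraries, this one gate, 5.77% to 11.2% of the kept barcodes, held 59.0% to 68.3% of all Il23r UMIs, 59.5% to 68.7% of Sox13, 54.4% to 67.9% of Blk and 52.2% to 58.8% of Il17re. It held 41.5% to 60.7% of Il17a and 41.6% to 58.8% of Il17f UMIs, but only 19.9% to 53.1% of Il22. Barcodes that met no gate held 28.1% to 49.1% of the Il17a UMIs. Within those, barcodes with CD3 chains and both Trdc and Trac, which no gate admitted, carried 61.2%, 87.2%, 75.6% and 48.0% in library order. Barcodes with a CD3 sum under 2, within the limit on genes of other lineages, carried 3.81%, 5.22%, 13.3% and 32.6%. This breakdown was made after the values were seen.

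**Figure D1:**
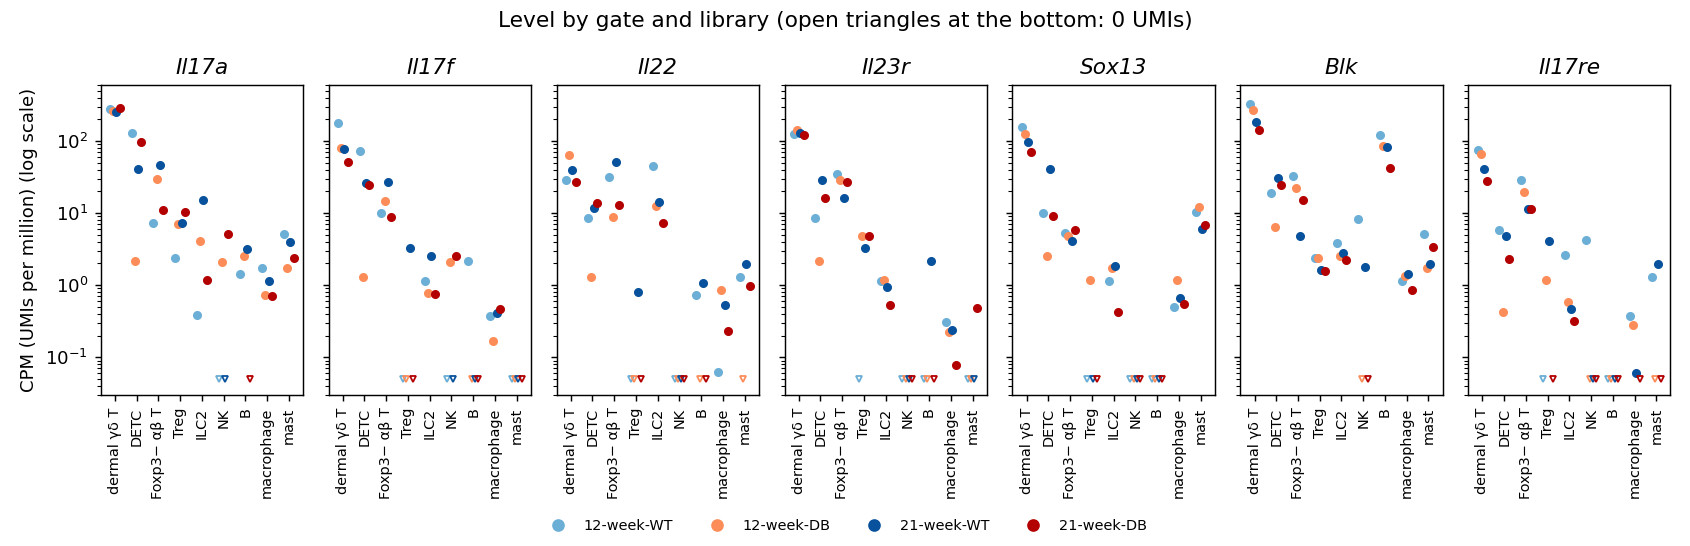
CPM (log axis) of each of the 7 genes in 9 gated cell types, 1 point per library, with open triangles at the bottom for gates where no UMI was counted. Dermal γδ T points are the highest or among the highest in each panel, Blk has a second level in B cells, and Il22 overlaps between dermal γδ T, αβ T and ILC2.

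Il17a, the leading cytokine of the program, stood at 281, 259, 250 and 288 CPM in the dermal γδ T gate, in library order. These 4 levels were close to each other and all lay above the other 8 types. The share of barcodes with Il17a was less even, at 11.95% to 21.05%. A remainder of 2 to 33 γδ T barcodes per library that could be assigned to neither γδ type reached 253 CPM in 21-week-WT, from 20 UMIs in 1 of its 10 barcodes. DETC came next, with 2.15 to 130 CPM, then Foxp3-negative αβ T cells, with 7.24 to 47.1, and those ranges overlapped. In DETC, 12-week-WT held 90 Il17a UMIs, 52 of them in 1 barcode, 21-week-DB held 84, 42 of them in 1 barcode, and 12-week-DB held 5. Without those single barcodes the DETC level was 55.2 CPM in 12-week-WT and 48.6 in 21-week-DB. Macrophages, which should lack the gene, held 0.701 to 1.75 CPM. The γ chain gene Tcrg-C1 was detected in 16.9%, 18.6%, 5.65% and 11.3% of Foxp3-negative αβ T barcodes in library order. In Foxp3-positive αβ T barcodes it was detected in 0%, 7.02%, 1.40% and 1.38%. Whether γδ T barcodes without a detected Trdc add to the αβ T levels of the 7 genes was not tested.

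Il17f, which pairs with IL-17A or with itself, stood at 177, 81.2, 76.3 and 51.3 CPM in the dermal γδ T gate in library order. The 12-week-WT library was the highest and 21-week-DB the lowest. The other gates ranged down from DETC (1.29 to 72.1) and Foxp3-negative αβ T cells (8.74 to 26.9), and the DETC range overlapped that of dermal γδ T through 12-week-WT, where 1 barcode held 20 of 50 UMIs and the level without it was 43.6 CPM. No Il17f UMI was counted in mast cells in any library.

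Il22 encodes a cytokine that acts on epithelial barriers and is made by several lymphoid types. In dermal γδ T it stood at 28.5, 64.8, 39.7 and 26.9 CPM, highest in 12-week-DB. Foxp3-negative αβ T cells held 8.81 to 50.7, type 2 innate lymphoid cells (ILC2) held 7.21 to 45.1, and both ranges overlapped that of dermal γδ T. The highest ILC2 level, in 12-week-WT, was 24.3 without the barcode with the most Il22. ILC2 alone held 8.02% to 37.7% of all Il22 UMIs, and Foxp3-negative αβ T cells held 7.43% to 28.6%.

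Il23r encodes the receptor chain specific to IL-23, the cytokine that sustains IL-17 production. Its levels in dermal γδ T were 126, 140, 129 and 122 CPM. This was a narrow range, as for Il17a, and it lay above Foxp3-negative αβ T cells (16.3 to 34.9) and DETC (2.15 to 28.7), which overlapped each other. No Il23r UMI was counted in NK cells.

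Sox13 encodes a transcription factor that specifies IL-17-committed γδ T cells in the thymus. It stood at 156, 126, 98.0 and 71.4 CPM in dermal γδ T, falling in library order. Each of these levels lay above DETC (2.58 to 40.6) and Foxp3-negative αβ T cells (4.13 to 5.74). Mast cells held 5.98 to 12.1. No UMI of Sox13 was counted in NK or B cells, which allows 3 UMIs, or up to 16.0 CPM in the B gate of 21-week-DB, the smallest.

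Blk encodes a Src-family kinase first known from B cells and needed for IL-17-committed γδ T cells. Its levels in dermal γδ T were 328, 265, 182 and 144 CPM, in the same falling order as Sox13. B cells were second, at 42.8 to 120 CPM (166, 34, 77 and 8 UMIs), below dermal γδ T in every library and above DETC (6.44 to 31.1). The B gate was small in 12-week-DB and 21-week-DB, with 97 and 46 barcodes.

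Il17re encodes the receptor chain that binds IL-17C. It stood at 74.8, 65.5, 40.7 and 27.9 CPM in dermal γδ T, again in falling order. Foxp3-negative αβ T cells were second at 11.2 to 29.0, which overlapped the lowest dermal γδ T library. The ligand gene Il17c had no UMI in the dermal γδ T gate.

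**Figure D2:**
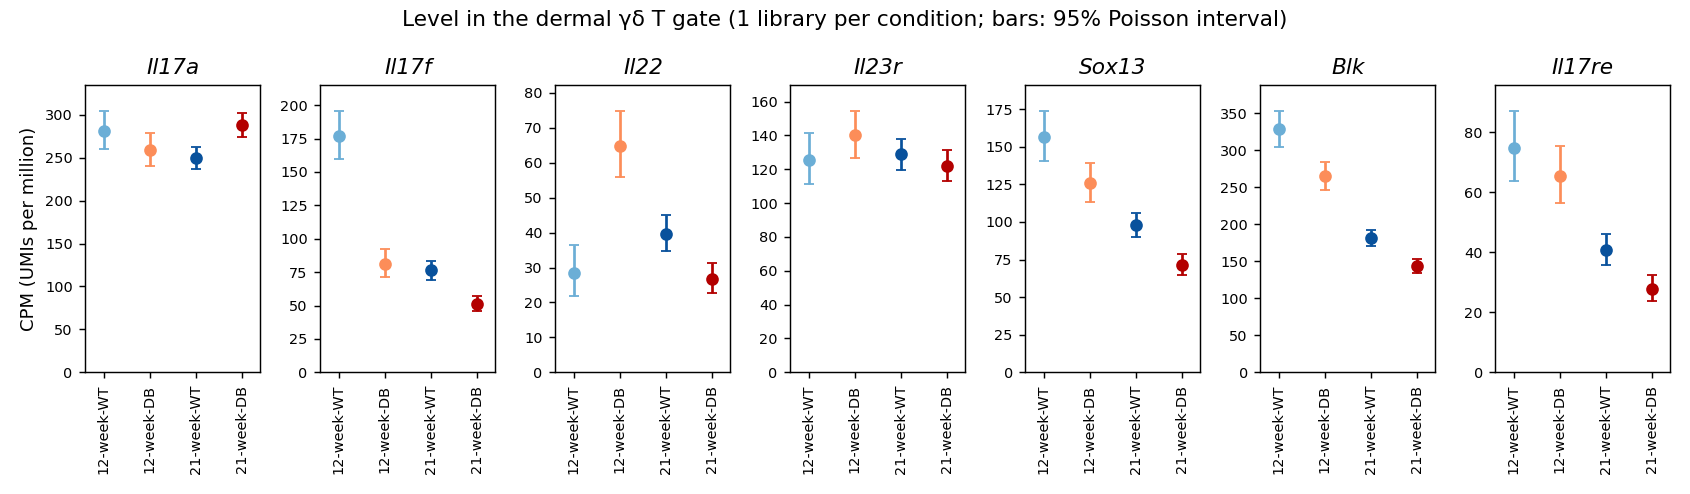
CPM (linear axis from 0) of each gene in the dermal γδ T gate of the 4 libraries, with bars for the 95% Poisson interval, which covers counting error only. Il17a and Il23r stay in narrow ranges (250 to 288 and 122 to 140), whereas Il17f, Sox13, Blk and Il17re are highest in 12-week-WT and lowest in 21-week-DB.

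The difference between dermal γδ T and each of 3 other lymphoid gates was tested over the 4 libraries, with UMIs summed per library and gate and the library as a block (edgeR quasi-likelihood test, Benjamini-Hochberg adjusted over all genes tested). The block took up differences between libraries that both gates shared. Because the 4 libraries were 4 conditions, the remaining spread included any change of the gate difference with genotype and age. The 7 genes were chosen with earlier results of these data known, so their calls are not an independent check. The dermal γδ T gate itself used Tcrg-V6, the chain of fetal IL-17-committed cells, and Cd163l1 and Cxcr6 from the surface list below. That gate entered every comparison, so none was independent of the program. Against Foxp3-negative αβ T cells, 6 of the 7 genes were higher in dermal γδ T and none was lower, where 9.09% of the 10568 genes tested were higher and 9.58% lower. The median log2 difference of the 7 was 2.40, against 0.0063 over all genes. Sox13 differed most, with a log2 difference of 4.36 (SE 0.18, adjusted p = 6.18e-08), followed by Blk at 3.71 (SE 0.23, adjusted p = 1.49e-06) and Il17a at 3.42 (SE 0.31, adjusted p = 2.23e-05). Il17f followed at 2.40 (SE 0.27), Il23r at 2.31 (SE 0.16) and Il17re at 1.55 (SE 0.14), and these 6 were higher in 4 of 4 libraries. Il22 was higher in 2 of 4 libraries, with a log2 difference of 0.66 (SE 0.39, adjusted p = 0.291) that did not pass, and of 0.079 without 12-week-DB.

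Against DETC, the other γδ T lineage, all 7 genes were higher in dermal γδ T, each in 4 of 4 libraries, where 19.3% of the 9998 genes tested were higher and 22% lower. The split between these gates rested directly on Tcrg-V6, Cd163l1, Cxcr6 and F2r against the DETC genes, so this comparison too was not independent of the program. The median log2 difference was 3.36, against 0.060 over all genes. Il17re differed most (4.53, SE 0.42, adjusted p = 2.49e-06), then Blk (3.71, SE 0.35, adjusted p = 3.32e-06) and Il23r (3.65, SE 0.39, adjusted p = 9.21e-06). The cytokines differed less, by 2.53 for Il22 (SE 0.52), 2.40 for Il17a (SE 0.53) and 1.99 for Il17f (SE 0.45, adjusted p = 0.0036). The DETC gate held 118, 421, 59 and 165 barcodes. With DESeq2 or without the library block, Il17f did not pass.

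Against ILC2, which share a tissue and many activation genes with dermal γδ T but lack a T cell receptor, all 7 genes were again higher, where 12.7% of the 11215 genes tested were higher and 13.5% lower. The median log2 difference was 6.01, against -0.000678 over all genes. Il23r differed by 7.16 (SE 0.14, adjusted p = 4.29e-09), Sox13 by 6.42 (SE 0.17), Blk by 6.24 (SE 0.12), Il17f by 6.01 (SE 0.22), Il17re by 5.93 (SE 0.24) and Il17a by 5.80 (SE 0.45), each in 4 of 4 libraries. Il22 differed by only 1.28 (SE 0.38, adjusted p = 0.0367), in 3 of 4 libraries. Its call was lost without 12-week-DB (0.91), 21-week-WT (1.21) or 21-week-DB (1.11), and also with DESeq2, with stricter gates and without the library block.

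**Figure D3:**
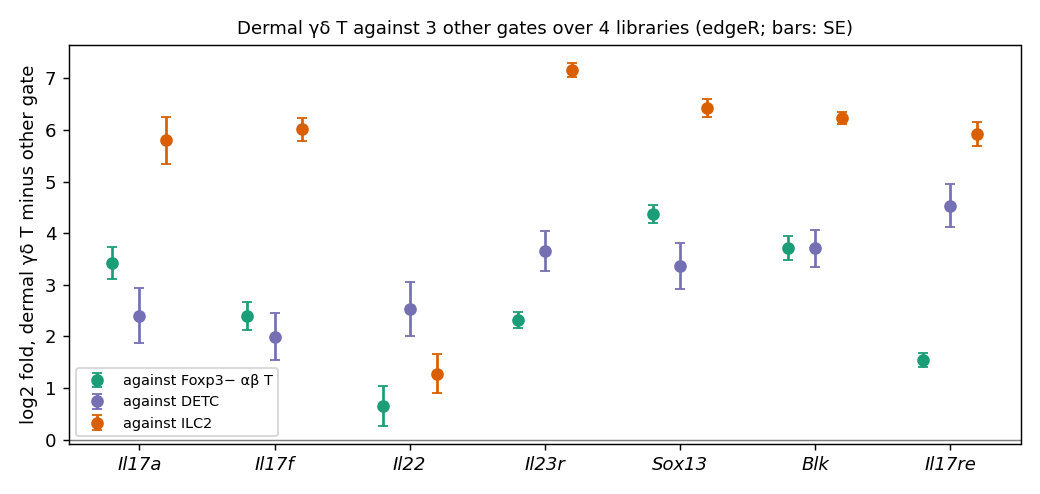
Fitted log2 difference of each gene between dermal γδ T and Foxp3-negative αβ T cells, DETC or ILC2, over 4 libraries, with bars for the SE and positive values higher in dermal γδ T. Of the 21 differences, 20 pass the adjusted threshold, and Il22 against αβ T cells (0.66) does not.

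Other genes of the pathway, from a list of regulators and surface genes, were counted in the same fits. Of 21 such genes, 19 were not used for gating and were tested. Against Foxp3-negative αβ T cells 10 were higher in dermal γδ T and 1 was lower, beside 9.09% and 9.58% of all genes tested. Against DETC 15 were higher and 3 lower, beside 19.3% and 22%, and against ILC2 10 were higher and 6 lower, beside 12.7% and 13.5%. Il1r1, the IL-1 receptor, was higher in all 3, by 2.26, 3.01 and 4.18 on the log2 scale, and Maf, a transcription factor of the same program, by 1.11, 1.85 and 1.70. Also higher in all 3 were Zbtb16, which encodes the transcription factor PLZF (0.62, 3.77 and 3.14), the chemokine receptor Ccr6 (0.995, 2.80 and 1.17), the IL-7 receptor Il7r (0.74, 2.71 and 0.23) and Il12rb1 (1.02, 0.98 and 1.88). The membrane protein genes Tmem176a (1.13, 1.79 and 1.05), Tmem176b (0.88, 1.72 and 0.77) and Ramp1 (0.85, 2.67 and 1.11) were as well. Against DETC, Rora (1.18), Runx1 (1.95), Ccr2 (1.60), Il18r1 (1.52) and Nfkbiz (1.08) were also higher. Batf was lower than in αβ T cells (-0.57, SE 0.13), and Stat3, Sox4 and Ahr were lower than in DETC (-1.09, -1.92 and -1.84). Sox4 (-1.82), Batf (-0.50), Ahr (-0.47), Nfkbiz (-0.44), Ccr2 (-0.42) and Rora (-0.40) were lower than in ILC2.

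Of 7 chains of the receptors for this cytokine family, 4, 4 and 5 were tested against αβ T cells, DETC and ILC2. Il17rb, the chain that binds IL-25, was lower in dermal γδ T than in αβ T cells (-3.37, SE 0.32) and ILC2 (-3.76, SE 0.32). Il17rc, which joins the receptor for IL-17A and IL-17F, was higher than in both (1.66, SE 0.38, and 2.45, SE 0.32), at 3.23 to 6.34 CPM in dermal γδ T. Il17ra, the chain shared by the family, was higher than in DETC by 0.56 (SE 0.18). Il17rd was lower than in DETC (-1.75, SE 0.45) and higher than in ILC2 (1.23, SE 0.38). Of 11 other ligand and inducing cytokine genes, 3, 3 and 4 were tested. Ifng, the cytokine of type 1 responses, was lower than in αβ T cells (-5.13, SE 0.26, adjusted p = 3.86e-07) and ILC2 (-2.62, SE 0.35). Against DETC, Ifng stood at -1.12 (SE 0.57, adjusted p = 0.138) and did not pass. Csf2, which encodes GM-CSF, was higher than in αβ T cells (1.08, SE 0.28) and DETC (1.87, SE 0.28) and lower than in ILC2 (-1.05, SE 0.18). Il1b was lower than in DETC (-1.04, SE 0.28) and Il6 lower than in ILC2 (-2.08, SE 0.49), each higher in 1 of 4 libraries. Few UMIs were counted in dermal γδ T for several of these genes. In library order they were 2, 10, 7 and 3 for Il17rb and 5, 15, 11 and 24 for Il17rd. For Il6 they were 2, 0, 17 and 5, and for Ifng 9, 14, 9 and 17.

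The 7 genes differed in how their UMIs were spread over dermal γδ T barcodes. The cytokine UMIs sat in few barcodes, whereas those of Il23r, Sox13 and Blk were spread widely and those of Il17re less so. In 21-week-DB, Il17re was detected in 137 barcodes and Il17a in 136. The 5% of barcodes with the most Il17a held 69.2%, 87.6%, 73.8% and 84.0% of the Il17a UMIs in library order, and single barcodes reached 50, 104, 111 and 113 UMIs. The same share was 71.4% to 94.0% for Il17f and 87.3% to 92.5% for Il22. It was 21.9% to 25.4% for Il23r, 20% to 31.7% for Sox13, 14.3% to 22.2% for Blk and 24.8% to 46.3% for Il17re.

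**Figure D4:**
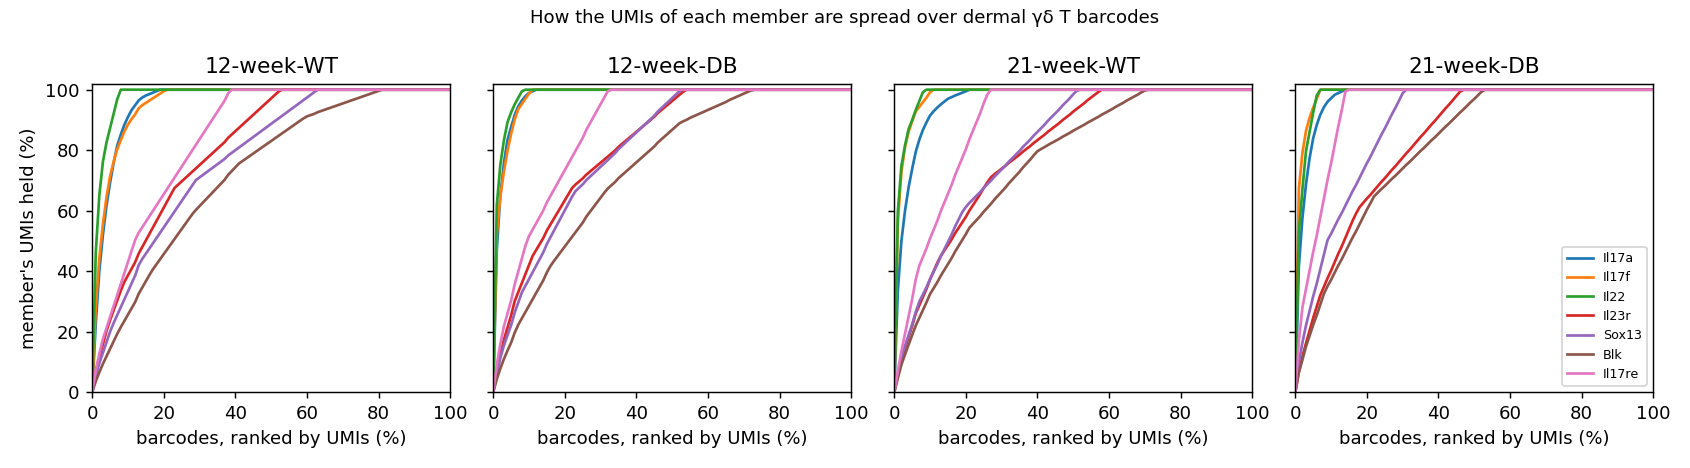
Share of each gene's UMIs held by dermal γδ T barcodes ranked from the most to the fewest UMIs of that gene, 1 panel per library. The Il17a, Il17f and Il22 curves rise steeply, with 69.2% to 94.0% of UMIs in the first 5% of barcodes, and the Il23r, Sox13 and Blk curves rise slowly.

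Il17a was detected in 19.1%, 11.95%, 21.05% and 13.98% of dermal γδ T barcodes in library order, and in at most 1.83% of macrophage barcodes, whose median depth was 9128 to 10773.5 UMIs. With each barcode thinned to 2000 UMIs, which left out 2, 7, 3 and 35 shallower barcodes, the shares were 15.2%, 8.68%, 13.8% and 9.91%. These shares did not follow the CPM levels, so no order was read from them. Il17f was detected in 20.7%, 10.7%, 10.6% and 6.89% (thinned 11.6%, 6.20%, 4.97% and 3.52%), against at most 0.494% of macrophages, in the order of its levels. Il22 was detected in 6.27% to 8.29%, against at most 0.636%.

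Il23r was detected in 52.6%, 53.7%, 57.8% and 46.6% of dermal γδ T barcodes, and the thinned shares of 21.5%, 21.8%, 22.8% and 21.9% were nearly equal. Sox13 was detected in 62.8%, 52.4%, 51.3% and 30.5% (thinned 29.5%, 21.6%, 18.6% and 13.4%) and Blk in 80.9%, 72.4%, 70.4% and 52.6% (thinned 50.7%, 40.7%, 31.1% and 24.8%). For both, the order of the libraries was that of the CPM levels, before and after thinning. Il17re was detected in 38.8%, 32.2%, 26.5% and 14.1%. Its thinned shares ranged from 5.44% to 14.6%, lowest in 21-week-DB. The highest thinned share was in 12-week-DB and not in 12-week-WT, so the order of the CPM levels was not kept after thinning. Macrophage barcodes held a UMI of Il23r in at most 0.327%, of Sox13 in at most 1.35%, of Blk in at most 1.69% and of Il17re in at most 0.393%. In B cells, Blk was detected in 34.0%, 24.7%, 29.2% and 15.2%.

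Within dermal γδ T, both IL-17 cytokines were often found in the same barcodes. Il17f was detected in 43.1%, 46.9%, 30.1% and 24.3% of Il17a-positive barcodes, against 15.4%, 5.82%, 5.40% and 4.06% of Il17a-negative ones. The higher share lay with the Il17a-positive barcodes in all 4 libraries, and the 95% intervals did not overlap in any of them. With barcodes thinned to 2000 UMIs the shares were 32.6%, 34.3%, 22% and 15.1% against 7.81%, 3.53%, 2.24% and 2.25%. Barcodes with both numbered 25, 23, 46 and 33, while 33, 26, 107 and 103 held only Il17a of the pair. Sox13 was detected in 56.9% of Il17a-positive and 64.2% of Il17a-negative barcodes in 12-week-WT and 27.2% and 31.1% in 21-week-DB, and these intervals overlapped in all 4 libraries. Il17re was detected in 36.6% of Il17a-positive and 23.9% of Il17a-negative barcodes in 21-week-WT, with intervals that did not overlap. After thinning these shares were 11% and 9.94%, with overlapping intervals. In each other library the unthinned Il17re share was lower in Il17a-positive barcodes. At least 1 of Il23r, Sox13 and Blk was detected in 93.4%, 88.5%, 91.6% and 79.7% of dermal γδ T barcodes, but at least 1 of the 3 cytokines in only 35.2%, 23.4%, 30.8% and 22.0%.

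DB and WT were compared within each age as ratios of CPM between 2 libraries, with an exact 95% interval for counting error only. This interval treats each UMI as independent, so it is too narrow for Il17a, Il17f and Il22, whose UMIs sat in few barcodes. A gene was counted as higher or lower when the ratio reached 1.5-fold, among genes with at least 20 UMIs over both libraries and at least 20 CPM in the higher one. At 12 weeks, 1 of the 7 genes was higher in DB, where 3.54% of the 6435 genes over this floor were, and 1 was lower, where 2.75% were. Il22 was the higher one, with a log2 ratio of 1.18 (0.76 to 1.62), and Il17f the lower one, at -1.13 (-1.37 to -0.89). One barcode of 12-week-DB held 75 of its 186 Il22 UMIs, and without the top barcode of each library the Il22 ratio was 0.80. Sox13 (-0.31) and Blk (-0.31) were below 1.5-fold with intervals under 0, and the intervals of Il17a (-0.12), Il23r (0.16) and Il17re (-0.19) included 0. The median of the 7 was -0.19, against 0.038 over all genes.

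At 21 weeks, none of the 7 genes reached 1.5-fold between DB and WT, where 11% of the 6125 genes over the floor were higher in DB and 9.26% lower. Il17f (-0.57), Il22 (-0.56), Il17re (-0.54), Sox13 (-0.46) and Blk (-0.34) were lower in DB and Il17a was higher (0.21), each with an interval that excluded 0. The directions of Il17a and Il22 depended on the processing. Il17a was at -0.17 with at most 5% mitochondrial UMIs, and Il22 at 0.18 with no lineage limit. The interval of Il23r (-0.079) included 0. The median of the 7 was -0.46, against 0.0085 over all genes. Genes of cycling cells (Mki67, Top2a, Stmn1, Pclaf and Birc5) moved with this comparison, summing to 472, 381, 427 and 59.7 CPM in the dermal γδ T gate in library order. Without the 26.3%, 28.8%, 25.6% and 15.9% of barcodes with a UMI of Mki67, Top2a, Pclaf or Birc5, Il17f (-0.67) and Il22 (-0.62) passed 1.5-fold lower in 21-week-DB.

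The libraries of each genotype were also compared between ages. In WT, 4 of the 7 genes were at least 1.5-fold lower at 21 weeks, where 9.21% of 6246 genes were, and none was higher, where 2.37% were. These were Il17f (-1.22), Il17re (-0.88), Blk (-0.85) and Sox13 (-0.67), while Il17a (-0.17) and Il23r (0.037) differed less and Il22 was at 0.47. In DB, 5 of the 7 were lower at 21 weeks, where 19% of 6419 genes were, and none was higher, where 6.71% were. Those 5 were Il22 (-1.27, -1.59 to -0.96), Il17re (-1.23), Blk (-0.89), Sox13 (-0.82) and Il17f (-0.66), with Il17a at 0.15 and Il23r at -0.20. The medians of the 7 were -0.67 in WT and -0.82 in DB, against -0.12 and -0.16 over all genes. The 12-week files name Cell Ranger 5.0.0 and the 21-week files 6.0.0, so the software and age cannot be told apart.

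**Figure D5:**
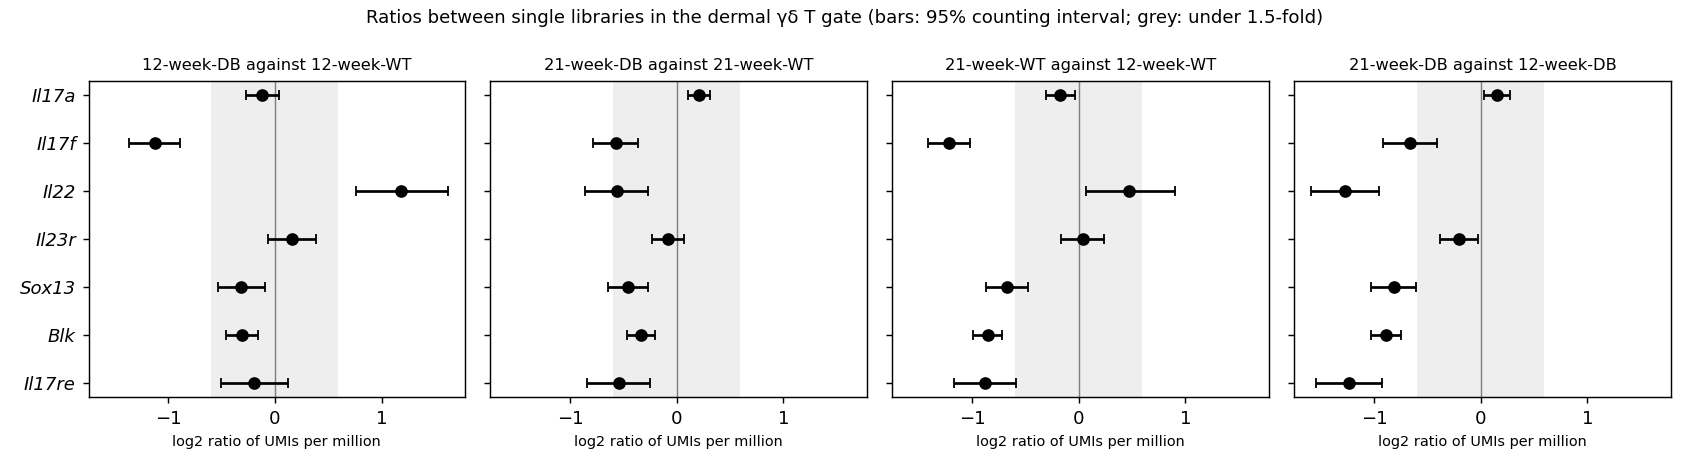
Log2 ratio of CPM in the dermal γδ T gate for the 4 comparisons of single libraries, with bars for the 95% counting interval and a grey band for ratios under 1.5-fold. Il17f and Il22 lie outside the band in opposite directions between 12-week-DB and 12-week-WT, and Sox13, Blk and Il17re lie below it in both comparisons between ages.

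Several ratios moved when the cycling barcodes were left out. Il17a moved from -0.12 to -0.43 and Il17f from -1.13 to -1.55 between 12-week-DB and 12-week-WT. Il17a moved from 0.15 to 0.54 between 21-week-DB and 12-week-DB. There, Sox13 (-0.89), Blk (-0.99) and Il17re (-1.20) stayed at least 1.5-fold lower, whereas Il17f moved to 0.057 and Il22 to -0.39. Between 21-week-WT and 12-week-WT, Sox13 (-0.74), Blk (-0.87), Il17re (-0.93) and Il17f (-0.83) stayed at least 1.5-fold lower and Il22 stood at 1.05. Without the top barcode of each library, the ratio of 21-week-DB to 12-week-DB was -0.38 for Il17f and -0.90 for Il22.

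The share of barcodes in which a γδ chain was detected also differed between libraries. Barcodes with Tcrg-V6, the chain of fetal IL-17-committed cells, and no Tcrg-V4 made up 22.4%, 23.7%, 14.03% and 33.0% of dermal γδ T. In 74.3%, 73.9%, 83.9% and 63.3% neither chain was detected, and Tcrg-V6 was itself used by the gate. These shares therefore describe detection and do not give the chain make-up of the cells. Within them Sox13 stood at 167, 136, 80.4 and 80.3 CPM, and in barcodes with neither chain detected at 148, 123, 100.8 and 62.9. Blk stood at 363, 263, 192 and 160 in the former and 319, 268, 177 and 136 in the latter. In both subsets, each 21-week library was below each 12-week library for both genes. Barcodes with Tcrg-V4 and no Tcrg-V6, only 9, 9, 15 and 24 in library order, did not follow this order. Sox13 stood there at 271, 106, 107 and 137 CPM and Blk at 226, 225, 282 and 137. Whether chain make-up has a part in the differences between ages was not tested. When DETC and undecided γδ T barcodes were pooled with dermal γδ T, the counts between conditions changed, with 5 genes lower in DB at 12 weeks and none lower between 21-week-DB and 12-week-DB. DETC made up more of the γδ T barcodes in 12-week-DB (421 DETC beside 410 dermal) than in any other library.

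Among the 21 regulators and surface genes, 20 were over the floor. These included the gate genes Cd163l1 and Cxcr6, whereas the shares over all genes left out genes used by gates. In 12-week-DB against 12-week-WT 1 was higher and none lower, beside 3.54% and 2.75% of all genes over the floor. In 21-week-DB against 21-week-WT 2 were higher and 2 lower, beside 11% and 9.26%, which for 20 genes is near the background. In 21-week-WT against 12-week-WT none was higher and 4 were lower, beside 2.37% and 9.21%, and in 21-week-DB against 12-week-DB 3 were higher and 6 lower, beside 6.71% and 19%. Maf (1358, 1274, 847 and 783 CPM in library order) and Il12rb1, the partner chain of Il23r (55.7, 39.4, 30.7 and 15.6), were at least 1.5-fold lower at 21 weeks in both. Batf (18.6, 30.7, 27.8 and 56.4) was at least 1.5-fold higher in DB at both ages, and higher at 21 than at 12 weeks in DB (0.88). Il7r was higher in 21-week-DB than in 21-week-WT (0.90) and 12-week-DB (0.60), Ramp1 was lower there than in both (-0.82 and -0.62), and Il12rb1 was lower than in 21-week-WT (-0.97). Ccr6 was lower at 21 weeks in WT (-0.63). In DB, Runx1 (-0.86) and the gate gene Cd163l1 (-0.63) were lower and Nfkbiz (0.60) higher at 21 weeks. Csf2 (88.8, 51.2, 45.6 and 33.5) had a log2 ratio of -0.79 between 12-week-DB and 12-week-WT, and it was at least 1.5-fold lower at 21 weeks in both genotypes (-0.96 in WT and -0.61 in DB). Il1b, an inducing cytokine usually made by myeloid cells, stood at 8.16, 25.8, 79.0 and 164 in the gate, higher at 21 weeks by 3.28 in WT and 2.67 in DB on the log2 scale, and higher in DB by 1.66 at 12 weeks and 1.06 at 21 weeks. Macrophage genes summed to 401, 269, 204 and 231 CPM in the same gate, and their part in the Il1b values was not tested.

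The genes most like each member other than Il22 were ranked over 36 profiles, the 9 gates in 4 libraries, by Pearson's r of log2(CPM + 1) among 9181 genes. Only genes with at least 100 UMIs summed over the dermal γδ T gates of the 4 libraries entered, so they were admitted through the gate where the members were highest. That gate was itself drawn with Tcrg-V6, Cd163l1 and Cxcr6, so a high r with other γδ T genes was partly built in. The profiles share libraries and depth, so r is a description. Il17f was the most like Il17a (r = 0.914), followed by Actn2 (0.893), Il23r (0.890), Mtcl1 (0.880) and Cdh10 (0.852). Il17f had Tcrg-C2, Trgv2, Cdh10 and Kcnk1 after Il17a (0.904 to 0.892). Trgv2, a γ chain segment, was the most like Il23r (0.931), Mtcl1 the most like Sox13 (0.880), and Lingo4 (0.914) the most like Il17re. Blk, which B cells also express, had its closest match at only 0.748 (Slc16a6).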

How the data were processed

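UMI counts were deposited for 4 libraries, 1 per condition. The authors aligned reads to mm10 with Cell Ranger (5.0.0 in the labels and the 12-week headers, 6.0.0 in the 21-week headers, 10x 3′ v3 chemistry) and deposited unnormalized counts per gene and barcode. Totals were 47851794 to 69626521 UMIs per library. Barcodes were kept with 200 or more genes and a mitochondrial share of up to 10%, and lymphoid gates allowed at most 1% of UMIs from genes of other lineages. ILC2 were gated on Gata3 with Il13, Il5, Hlf, Il1rl1, Areg or Klrg1, αβ T on CD3 and Trac without Trdc, B on Cd79a, Cd79b and Ms4a1, and macrophages on C1q. No gate used a member. The dermal γδ T gate, which entered every comparison, used Tcrg-V6, the chain of fetal IL-17-committed cells, with Cd163l1 and Cxcr6 of the surface list.

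Levels (CPM) are a gene's UMIs scaled to 1000000 UMIs of the gate, not scaled for gene length. Poisson, binomial and ratio intervals are exact, at 95%, and cover counting error only. Poisson and ratio intervals treat each UMI as independent and leave out the spread between barcodes. They are too narrow for Il17a, Il17f and Il22, whose UMIs sat in few barcodes. A count of 0 allows 3 UMIs. Gates were compared with edgeR 4.0.16 in R 4.3.3 (filterByExpr, TMM, library as a block, adjusted p under 0.05). Genes used by gates stayed in the adjustment and out of the counts of these fits. In the ratios between libraries, Cd163l1 and Cxcr6 stayed in the counts of the regulator list, while the shares over all genes left gate genes out. Values of 1 gene of the regulator list are not reported here. Tested on simulated counts with 200 changed genes, the fit recovered 86%, 73% and 79% of 2-fold and 100% of 4-fold changes in the comparisons with αβ T cells, DETC and ILC2. The simulated counts had the same dispersion for every gene and no library effect, and changed genes were above a minimum expected count. These shares therefore do not carry over to the data. All 7 members were reported, and genes of the fixed pathway lists were counted and, when past a call, named, apart from the 1 not reported. Doublets stayed in, and were removed with Scrublet (scanpy 1.11.5) at 0.8% per 1000 barcodes as an alternative. Further alternatives were a minimum of 500 genes, a mitochondrial limit of 5%, stricter gates, no lineage limit, all γδ T pooled, other scalings, thinning to 2000 UMIs, DESeq2 1.42.0, no gene filter, no block and each library left out. Removing shared barcodes, cycling barcodes or each library's top barcode was chosen after seeing the data. The members and lists were chosen with earlier results of these data known. Ages come from the study's methods, and the labels say young and aged.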

Additional observations from a re-analysis of the deposited data

Results flagged for a closer look

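Il22 in dermal γδ T went in opposite directions between DB and WT at the 2 ages, by 1.18 at 12 weeks and -0.56 at 21 weeks on the log2 scale, both with counting intervals that exclude 0. With no lineage limit the ratios were 1.22 and 0.18, in the same direction. Without the top barcode of each library they were 0.80 and -0.64. Each ratio compares 1 library with 1 library, and the difference between ages was not tested.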

How the results depend on the processing

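Of the 294 fitted log2 differences between types under alternatives, 285 kept their direction and side of the threshold, 8 no longer passed and 1 newly passed (Il22 against αβ T cells with no filter on low counts). The members higher in dermal γδ T numbered 6 or 7 in each comparison under every alternative. Without the replicate block, 699 genes were called against αβ T cells (1973 with it) and 1182 against ILC2 (2938 with it). Leaving out 1 library gave 2695 (without 12-week-DB) to 3766 (without 21-week-WT) genes against DETC, where the full fit gave 4135. No paired analysis by replicate number was possible because each condition has 1 library. Between conditions, the members at least 1.5-fold lower numbered 5 with all γδ T pooled for 12-week-DB against 12-week-WT (1 in dermal γδ T). For 21-week-DB against 21-week-WT (0 in dermal γδ T) they numbered 2 with a limit of 5% mitochondrial UMIs, 1 with stricter gates, 3 with all γδ T pooled, 2 without cycling barcodes and 1 without the top barcode. For 21-week-WT against 12-week-WT (4), 2 were lower with all γδ T pooled, and 1 was higher with all γδ T pooled and 1 without cycling barcodes. For 21-week-DB against 12-week-DB (5), 3 were lower with no lineage limit, 3 without cycling barcodes and 0 with all γδ T pooled, which also gave 1 higher. The Il17f ratio there turned from -0.66 to 0.078 with all γδ T pooled and to 0.057 without cycling barcodes. That ratio was also short of 1.5-fold, at -0.51 with no mitochondrial or ribosomal genes in the scale and at -0.38 without the top barcode. Between 21-week-DB and 21-week-WT, the Il22 ratio turned from -0.56 to 0.18 with no lineage limit. The Il17a ratio of the same libraries turned from 0.21 to -0.17 with a limit of 5% mitochondrial UMIs. The cause of these shifts was not tested. With 1 library per condition, counting depth limits the intervals but animal-to-animal spread was not measured.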
